A study of Caenorhabditis elegans with 10 samples.

Results

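The hedgehog-related and patched-related genes of Caenorhabditis elegans were taken as every gene of the count tables named wrt, grd, grl or ptr with a number, together with ptc-1, ptc-2, ptc-3, hog-1 and qua-1. They numbered 85 of 20222 genes. Of these, 59 were ligand-like (10 wrt, 16 grd, 31 grl, hog-1 and qua-1) and 26 were patched-like (23 ptr and 3 ptc). RNA was measured in dauers, the arrested larvae that form under harsh conditions, of 2 genotypes with 5 libraries each. The chd-7;daf-2 animals carried chd-7(gk290), a deletion allele of a chromatin-remodelling ATPase gene, together with daf-2(e1370), and are also called the double mutant. The daf-2 animals carried daf-2(e1370) alone, a temperature-sensitive allele of the insulin receptor gene, so both genotypes shared that mutation. Synchronized eggs of both were held at 25°C for 10 days. The labels do not state separate cultures for the replicates, so each p-value reflects library-to-library spread that may be technical. The title of the study concerns TGF-beta signalling, and the comparison of these genes by genotype is one that the design allows.

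Nematodes have no clear counterpart of Smoothened and no ligand that matches the vertebrate Hedgehog proteins throughout. They have large families of secreted proteins instead, the warthog (wrt), groundhog (grd), ground-like (grl), quahog (qua) and hog proteins, some of which carry the self-cleaving Hog domain found in Hedgehog. They also have many membrane proteins related to Patched, which carry a sterol-sensing domain. Members of both groups are best known from epithelia that face the cuticle (epidermis, seam, glia and excretory duct), where several act in moulting and in building the apical matrix.

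Assigned reads per library ranged from 7331885 to 14997608. Normalised read counts are given as CPM, read counts scaled to a common library size, by TMM, and 3 reads, the limit that a count of 0 allows, corresponded to 0.196 to 0.393 CPM. The chd-7 transcript averaged 265 ± 20.8 CPM in the double mutant and 230.1 ± 22.4 CPM in daf-2 (SD, n = 5 each), but reads are totalled along the full locus, so the deletion cannot be seen and nothing is checked. Of 10 dauer marker genes all were tested, with summed levels of 1733 to 3886 CPM in the double mutant and 2499 to 4801 CPM in daf-2. Most of each sum came from icl-1, with means of 2341 CPM in the double mutant and 2813 CPM in daf-2. The sums therefore say little about the scarcer markers. The adult cuticle genes col-19 and bli-1 had no read. Some libraries were much closer to each other than the rest (double-mutant replicates 1 and 2, and 3 and 4, and daf-2 replicates 4 and 5, with a chi-square per degree of freedom of 5.55, 6.58 and 3.83 against 15.99 to 67.4 in the other pairs). Whether these pairs share a culture was not tested. Germline marker genes summed to 286 CPM in double-mutant replicate 4, against 79.9 to 108 CPM in the other double-mutant libraries. All values come from whole animals, where fewer cells of a type and less RNA per cell cannot be told apart.

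Of 23 tested patched-like genes, 8 rose and 2 fell in the double mutant, with 13 not past the threshold, by edgeR's quasi-likelihood test at an adjusted p under 0.05 over all genes. Over all genes, 36.2% of 12499 tested genes were called, 17.9% as higher and 18.3% as lower. The patched-like share called was 43.5%. Ligand-like genes went both ways, with 7 of 33 tested members higher, 6 lower and 20 not past the threshold (39.4% called). With both directions pooled, these shares lie near the background and are not read as a property of these families. By direction the patched-like calls were uneven, at 8 higher and 2 lower of 23, where all genes gave 17.9% and 18.3%. That split was not tested. The median log2 fold change was 0.35 over the patched-like and 0.13 over the ligand-like genes tested, against -0.03 over all tested genes.

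**Figure D1:**
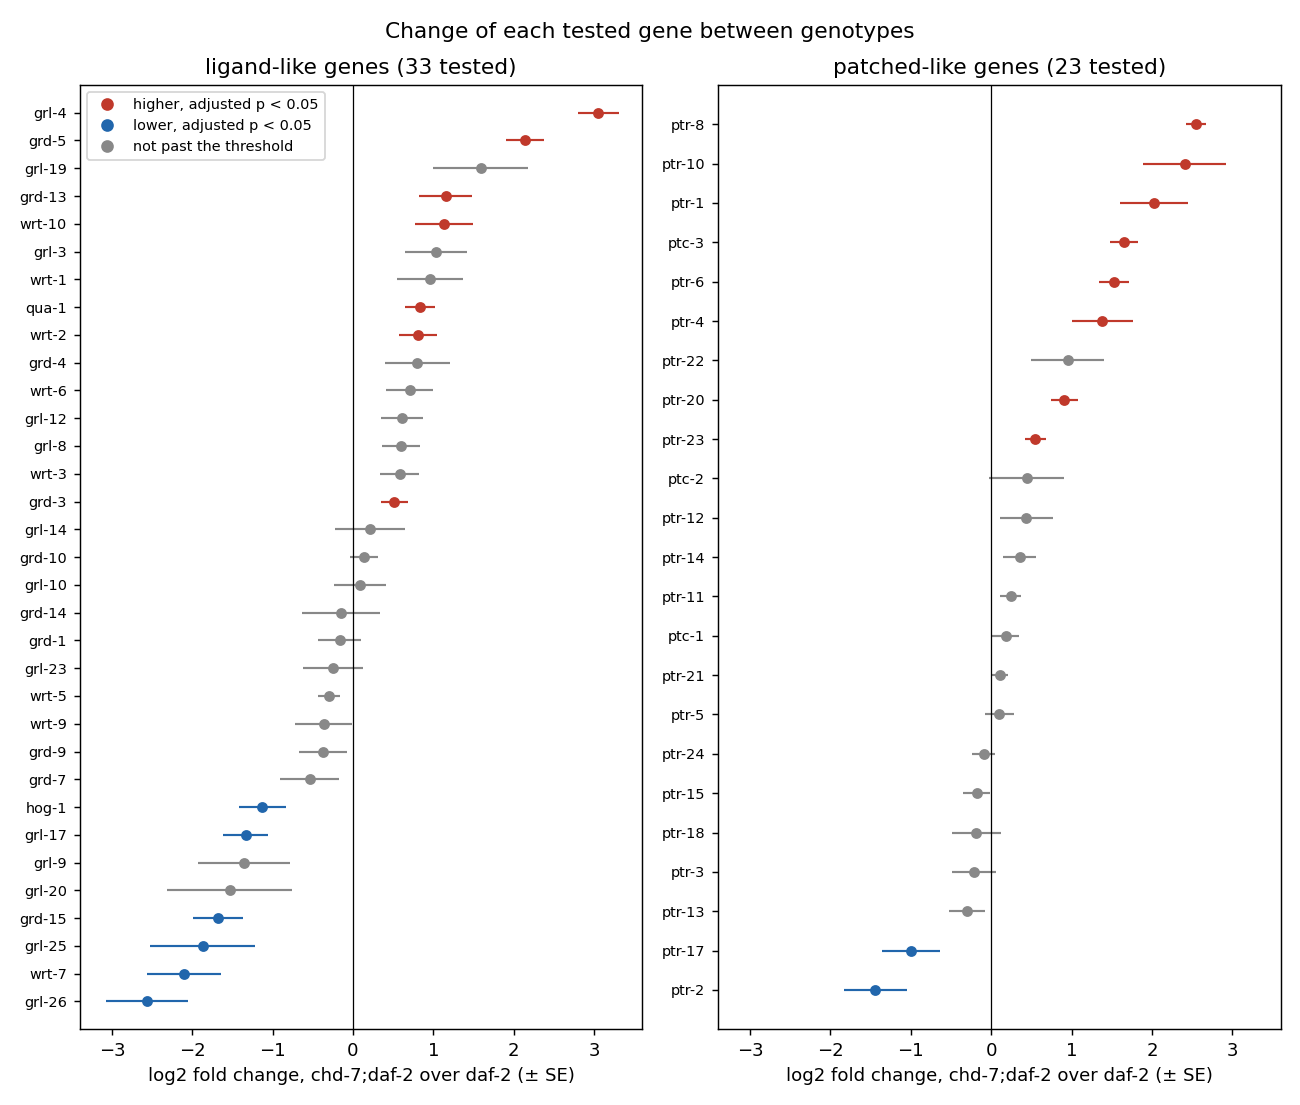
Log2 fold change of chd-7;daf-2 over daf-2 (x axis) with its SE for each of the 33 ligand-like and 23 patched-like genes tested, sorted by size and coloured by call. Calls among patched-like genes are 8 higher and 2 lower, and among ligand-like genes 7 higher and 6 lower.

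Expression without reference to genotype was uneven. Levels between genes were compared per length, as TPM, computed over exonic length. Among ligand-like genes grd-3 was highest in both genotypes, at 1251 ± 146 TPM in the double mutant and 857 ± 122 TPM in daf-2 (SD, n = 5 each). It was followed by grd-5 in the double mutant (356 ± 75.5 TPM) and by grd-10 in daf-2 (269 ± 38.5 TPM). In the double mutant the libraries of grd-5 and grd-10 overlapped in level, at 302 to 487 TPM and 259 to 405 TPM. In daf-2 grd-5 came next at 78.5 ± 21.4 TPM, within the spread of grl-23 behind it (58.9 ± 28.4 TPM). By reads, grd-3 alone made up 52.9% of the mean summed CPM of all ligand-like genes.

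Patched-like genes were more alike in level. In the double mutant the leading genes were ptr-23 (137 ± 13.3 TPM), ptr-13 (126 ± 52.4) and ptr-22 (117 ± 39.6), which lay within each other's spread. In daf-2 ptr-13 led at 154 ± 30.96 TPM, above ptr-23 at 92.1 ± 11.4 TPM without overlap of their libraries. There ptc-1 followed at 69.6 ± 21.1 TPM and overlapped ptr-23. A mean daf-2 level of at least 10 TPM was reached by 13 of the 25 patched-like genes with a length and by 10 of the 59 ligand-like genes. The gene ptc-2 had no matched length and is left out of these ranks.

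**Figure D2:**
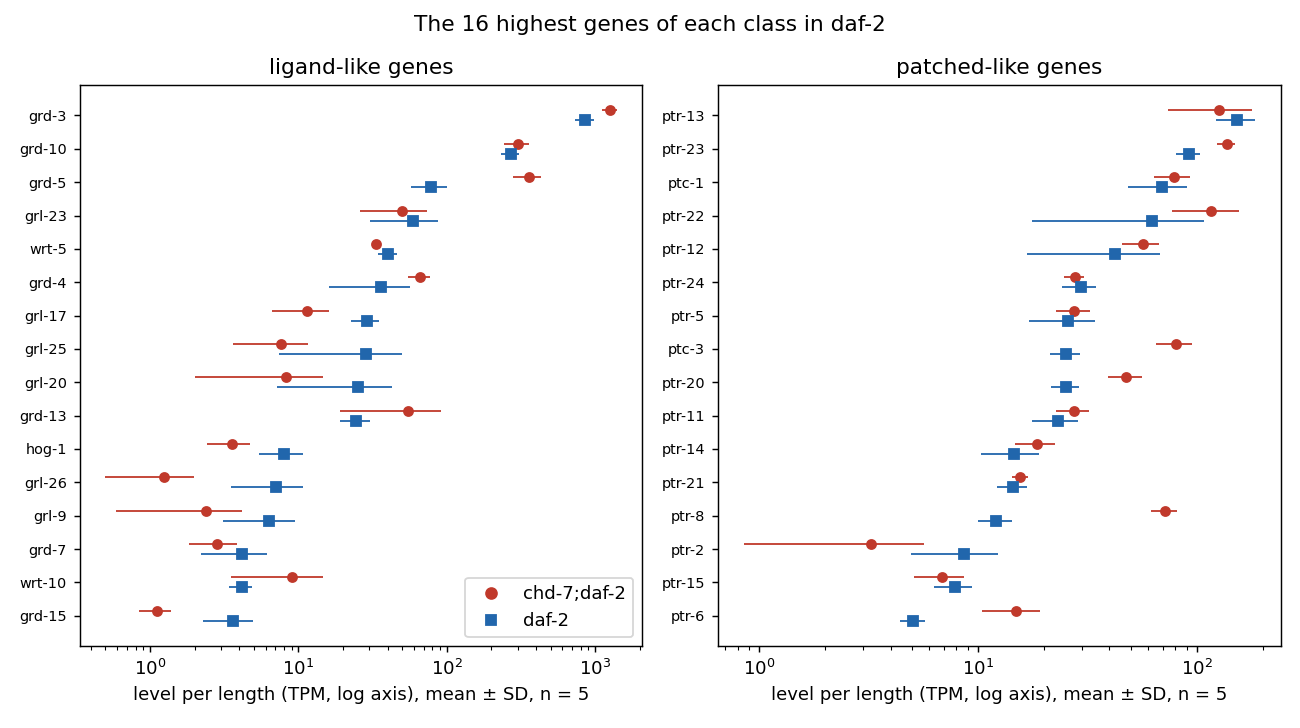
Level per length (TPM, log axis) of the 16 highest ligand-like and the 16 highest patched-like genes in daf-2, as mean ± SD over 5 libraries, with chd-7;daf-2 as red circles and daf-2 as blue squares. The grd-3 gene leads the ligand-like panel in both genotypes, and ptr-8 and ptc-3 show the widest gaps between genotypes in the patched-like panel.

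Among the 3 genes named ptc, 1 changed. PTC-3 is an essential Patched homologue of the worm, needed for moulting and larval growth. Its gene (WBGene00004210, chrII:2845412-2852593 on the minus strand in WBcel235) was read at 357, 318, 291, 299 and 198 CPM in double-mutant replicates 1 to 5, against 117, 95.03, 103, 72.1 and 79.7 CPM in daf-2 replicates 1 to 5. Every double-mutant library lay above every daf-2 library, and replicate 5 was the lowest of its genotype. Means were 293 ± 58.8 CPM in the double mutant and 93.3 ± 17.9 CPM in daf-2 (SD, n = 5 each), a log2 fold change of 1.65 ± 0.18, adjusted p = 6.14e-05. PTC-1, by contrast, is known for its part in germline cytokinesis. The ptc-1 gene was abundant in both genotypes at 334, 255, 346, 380.1 and 306 CPM in the double-mutant libraries, against 262, 190.5, 280.0, 361 and 335 CPM in the daf-2 libraries, with overlapping libraries and no call (0.18 ± 0.17, adjusted p = 0.432). The ptc-2 gene was scarce, at 1.58, 1.82, 1.58, 0.871 and 4.78 CPM in the double-mutant libraries, against 3.16, 1.08, 1.37, 0.968 and 1.44 CPM in the daf-2 libraries. Its libraries overlapped, double-mutant replicate 5 and daf-2 replicate 1 stood above the others, and it did not pass the threshold (0.44 ± 0.47, adjusted p = 0.484). The name ptc-2 was not found in the annotation used, and whether it encodes a protein was not checked.

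Of the 20 tested ptr genes, 7 rose and 2 fell. The lowest p of any member was that of ptr-8 (WBGene00004222, chrII:10889279-10893277, plus strand), one of the patched-related membrane proteins. Its libraries gave 175, 148, 181, 169.8 and 140.1 CPM in double-mutant replicates 1 to 5, against 22.7, 30.8, 28.5, 30.8 and 26.2 CPM in daf-2 replicates 1 to 5. No library of one genotype came near the other, and the spread within each was small. Means were 163 ± 17.6 CPM in the double mutant and 27.8 ± 3.43 CPM in daf-2 (SD, n = 5 each), a log2 fold change of 2.55 ± 0.12, adjusted p = 2.45e-07. The ptr-8 exons share 55 bases with sra-10 on the other strand, and the strand setting of the counting is not given in the sources used here. The value stayed between 2.48 and 2.58 when any 1 library was left out.

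A further member with a change of over 2-fold was ptr-6, at 42.3, 28.99, 45.4, 44.7 and 24.2 CPM in the double-mutant libraries, against 12.2, 15.4, 11.4, 13.9 and 11.4 CPM in the daf-2 libraries. Its libraries did not overlap, and double-mutant replicates 2 and 5 were lower than the other 3 of that genotype (1.52 ± 0.19, adjusted p = 0.000141). The gene ptr-20 was at 134, 127, 106, 86.7 and 81.6 CPM in the double-mutant libraries, against 76.6, 48.8, 52.6, 54.7 and 52.6 CPM in the daf-2 libraries. All its double-mutant libraries were higher, although replicate 5 of that genotype and replicate 1 of daf-2 lay close together (0.91 ± 0.17, adjusted p = 0.00201). The well-expressed ptr-23 was at 374, 390.4, 426, 354 and 368 CPM in the double-mutant libraries, against 343, 254, 262, 219.9 and 228 CPM in the daf-2 libraries. Its genotypes were separated by a narrow gap between double-mutant replicate 4 and daf-2 replicate 1 (0.55 ± 0.13, adjusted p = 0.00753), and with the close library pairs summed and counted once it did not pass (adjusted p = 0.0714).

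Several scarce ptr genes rose as well. PTR-4 is a patched-related protein of epidermal apical surfaces that is needed for moulting. Its gene was read at 7.37, 9.72, 7.53, 3.92 and 20.3 CPM in the double-mutant libraries, against 3.07, 4.61, 4.302, 2.76 and 4.19 CPM in the daf-2 libraries. Here double-mutant replicate 4 fell inside the daf-2 range and replicate 5 was highest (1.38 ± 0.38, adjusted p = 0.0149). Without replicate 5 the log2 fold change was 0.91 (adjusted p = 0.0237). For ptr-1 the values were 3.16, 4.09, 4.46, 2.83 and 7.01 CPM in the double-mutant libraries, against 0.171, 0.884, 1.56, 1.38 and 1.31 CPM in the daf-2 libraries. Its genotypes did not overlap, and the daf-2 level rested on 58 reads over 5 libraries (2.03 ± 0.42, adjusted p = 0.00387). For ptr-10 they were 2.63, 3.64, 3.53, 2.07 and 8.97 CPM in the double-mutant libraries, against 0.171, 1.28, 1.19, 0.484 and 0.916 CPM in the daf-2 libraries. The genotypes were again apart, with double-mutant replicate 5 far above its fellows and only 42 daf-2 reads in all (2.41 ± 0.52, adjusted p = 0.00458). The ptr-10 exons share 92 bases with a gene on the other strand.

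The 2 patched-like genes that fell were ptr-2 and ptr-17. The gene ptr-2 was at 4.56, 4.54, 6.13, 16.99 and 5.76 CPM in double-mutant replicates 1 to 5, against 21.1, 13.7, 32.3, 14.4 and 20.7 CPM in daf-2 replicates 1 to 5. The value in double-mutant replicate 4 stood far above the other 4 and inside the daf-2 range, whereas the other 4 lay below every daf-2 library (-1.44 ± 0.39, adjusted p = 0.0149). Replicate 4 was also the double-mutant library with the most germline marker RNA. Of 10 germline markers, 8 fell, with summed levels of 79.9 to 286 CPM in the double mutant and 242 to 567 CPM in daf-2. The part of the germline in the ptr-2 result was not tested. Without double-mutant replicate 4 and daf-2 replicates 2 and 3, ptr-2 still passed. The gene ptr-17 was at 0.7898, 1.36, 1.02, 0.763 and 1.51 CPM in the double-mutant libraries, against 1.54, 1.08, 1.74, 3.46 and 3.27 CPM in the daf-2 libraries. Libraries overlapped, the highest values were those of daf-2 replicates 4 and 5, and the call (-0.997 ± 0.36, adjusted p = 0.0493) did not survive leaving out any 1 of double-mutant replicates 1 to 4 or daf-2 replicates 3, 4 and 5 (highest adjusted p 0.131).

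The other 11 tested ptr genes did not pass the threshold, including some of the most abundant. The gene ptr-13 was at 201, 263, 519, 427 and 320.3 CPM in the double-mutant libraries, against 381, 408, 369.8, 482 and 496 CPM in the daf-2 libraries. Its double-mutant libraries spread more widely than the daf-2 ones, with replicates 1 and 2 below all others and replicate 3 above all (-0.30 ± 0.23, adjusted p = 0.311). Variation within daf-2 was large for ptr-22, at 369, 369, 206, 254 and 138 CPM in the double-mutant libraries, against 87.3, 50.6, 77.9, 253 and 222 CPM in the daf-2 libraries. The daf-2 replicates 4 and 5 lay within the double-mutant range, and the other 3 daf-2 libraries lay below it (0.95 ± 0.45, adjusted p = 0.12). The same daf-2 split held for ptr-12, at 142, 138, 163, 167 and 203 CPM in the double-mutant libraries, against 100.5, 55.4, 64.2, 194 and 186 CPM in the daf-2 libraries (0.44 ± 0.33, adjusted p = 0.324). The daf-2 replicates 4 and 5 are a close pair. By contrast ptr-21 hardly varied, at 37.2 to 48.4 CPM in the double mutant and 34.6 to 43.8 CPM in daf-2 (0.11 ± 0.10, adjusted p = 0.419). The remaining 7 (ptr-3, ptr-5, ptr-11, ptr-14, ptr-15, ptr-18 and ptr-24) had log2 fold changes between -0.21 and 0.35.

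**Figure D3:**
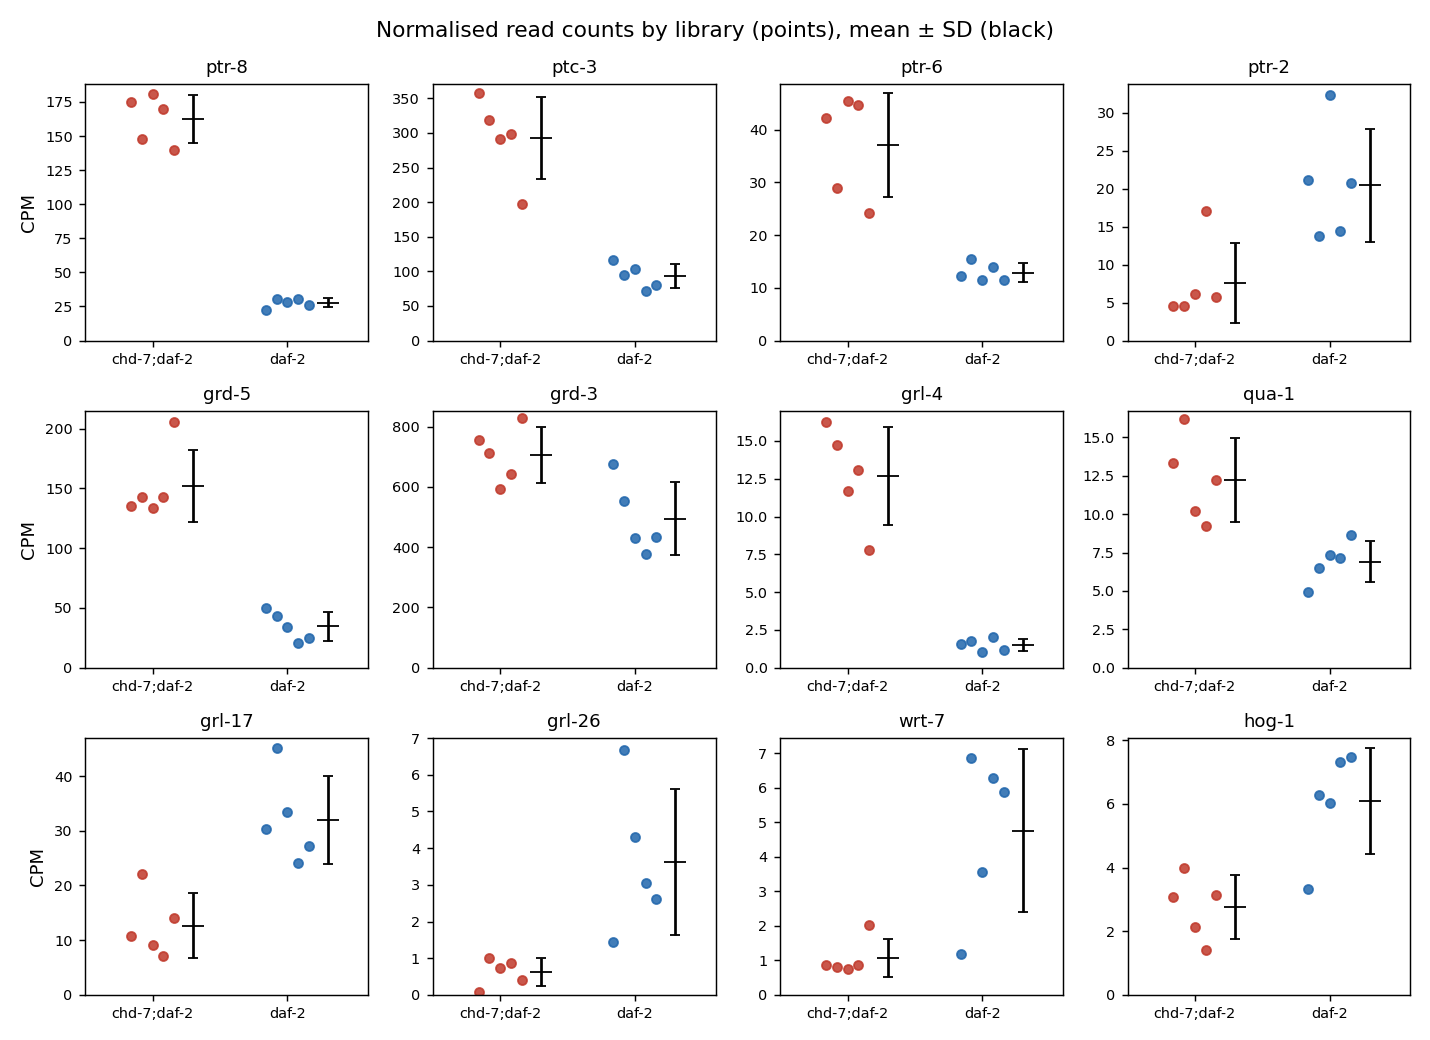
Normalised read counts (CPM, y axes from 0) of 12 genes in each library, with 5 chd-7;daf-2 libraries in red at the left and 5 daf-2 libraries in blue at the right, and mean ± SD in black. In ptr-8, ptc-3, ptr-6, grd-5, grl-4 and qua-1 all chd-7;daf-2 points lie above the daf-2 points. In grl-17 and grl-26 all lie below, and in ptr-2, grd-3, wrt-7 and hog-1 the genotypes overlap.

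Among the ligand-like genes, the grd family held the most abundant transcripts. Of 10 tested, 3 rose and 1 fell. The gene grd-5 (WBGene00001694, chrV:8619032-8619870, plus strand) was at 136, 143, 134, 143 and 206 CPM in double-mutant replicates 1 to 5, against 49.8, 43.7, 34.1, 20.7 and 24.6 CPM in daf-2 replicates 1 to 5. The 2 ranges were far apart, and double-mutant replicate 5 stood above the rest of its genotype. Means were 152 ± 30.3 CPM in the double mutant and 34.6 ± 12.3 CPM in daf-2 (SD, n = 5 each), a log2 fold change of 2.14 ± 0.24, adjusted p = 8.33e-05. The genes grd-13, grd-3 and grd-10 lie in that order on the plus strand of chromosome IV, with 147 and 601 bases between them and no annotated coding gene in between. Their changes differed in size. For grd-13 the values were 17.7, 19.4, 22.9, 17.97 and 58.6 CPM in the double-mutant libraries, against 11.6, 13.2, 9.52, 16.04 and 11.3 CPM in the daf-2 libraries. No library overlapped, and replicate 5 was 58.6 CPM against 17.7 to 22.9 CPM in the other double-mutant libraries (1.15 ± 0.34, adjusted p = 0.021). Without replicate 5 the log2 fold change was 0.64 (adjusted p = 0.0131). Without double-mutant replicate 4 and daf-2 replicates 2 and 3, which each stood apart in germline or yolk RNA, it did not pass (adjusted p = 0.0704).

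The grd-3 gene was at 754, 711, 594, 643 and 829.6 CPM in the double-mutant libraries, against 676, 555, 429, 378 and 434 CPM in the daf-2 libraries. Here daf-2 replicate 1 lay above double-mutant replicates 3 and 4 (0.52 ± 0.17, adjusted p = 0.0302). The call did not survive leaving out any 1 of double-mutant replicates 1, 2 and 5 or daf-2 replicates 3, 4 and 5 (highest adjusted p 0.0708). For grd-10 the libraries gave 151, 153, 127, 143 and 206 CPM in the double-mutant libraries, against 191, 162, 133, 113 and 113 CPM in the daf-2 libraries. They overlapped broadly (0.13 ± 0.17, adjusted p = 0.575). Within daf-2, grd-3, grd-4, grd-5 and grd-10 all were higher in replicates 1 and 2 than in replicates 4 and 5. The one grd gene that fell was grd-15, at 0.439, 0.545, 0.6505, 0.654 and 0.786 CPM in the double-mutant libraries, against 1.19, 2.45, 1.37, 2.76 and 2.23 CPM in the daf-2 libraries. All its values were low, and the genotypes did not overlap (-1.68 ± 0.31, adjusted p = 0.00201). Its exons share 112 bases with cyn-15 on the other strand. The remaining 5 tested grd genes (grd-1, grd-4, grd-7, grd-9 and grd-14) did not pass the threshold, with log2 fold changes between -0.54 and 0.80.

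In the grl family, 1 of 13 tested genes rose and 3 fell. The gene grl-4 (WBGene00001713, chrIV:7309838-7310760, minus strand) had the largest log2 fold change of any member. It was read at 16.2, 14.7, 11.7, 13.1 and 7.79 CPM in double-mutant replicates 1 to 5, against 1.54, 1.77, 1.01, 2.004 and 1.18 CPM in daf-2 replicates 1 to 5. The lowest double-mutant library, replicate 5, was above all daf-2 libraries. Means were 12.7 ± 3.23 CPM in the double mutant and 1.499 ± 0.4104 CPM in daf-2 (SD, n = 5 each), a log2 fold change of 3.05 ± 0.25, adjusted p = 1.24e-05. The gene grl-26 (WBGene00001735, chrIV:321514-322814, minus strand) was at 0.0878, 0.9997, 0.743, 0.871 and 0.393 CPM in the double-mutant libraries, against 1.45, 6.68, 4.302, 3.04 and 2.62 CPM in the daf-2 libraries. All double-mutant values were 1 CPM or less, from 34 reads over 5 libraries, and below every daf-2 value (-2.56 ± 0.51, adjusted p = 0.00307). The gene grl-17 was at 10.8, 22.2, 9.2, 7.08 and 14.01 CPM in the double-mutant libraries, against 30.4, 45.1, 33.4, 24.1 and 27.2 CPM in the daf-2 libraries. Its genotypes were apart by a small gap between double-mutant replicate 2 and daf-2 replicate 4 (-1.34 ± 0.28, adjusted p = 0.00442). The exons of grl-17 share bases with 2 non-coding genes on the other strand, and those of grl-25, below, with 4.

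The last of the grl genes that fell varied strongly within both genotypes. The gene grl-25 was at 28.3, 24.99, 11.5, 4.03 and 23.6 CPM in double-mutant replicates 1 to 5, against 11.5, 133, 27.9, 111 and 56.3 CPM in daf-2 replicates 1 to 5. In daf-2 replicates 2 and 4 were highest and replicate 1 lowest, below double-mutant replicates 1, 2 and 5, and double-mutant replicate 4 was lowest of all. The call (-1.87 ± 0.65, adjusted p = 0.0452) did not survive leaving out any 1 of 8 of the 10 libraries, the exceptions being daf-2 replicates 1 and 3 (highest adjusted p 0.107), nor a fit with the replicate number as a block (adjusted p = 0.202). The genes grl-20 and grl-9 had the same order at both ends without passing. The first was at 9.13, 7.18, 1.77, 0.109 and 7.66 CPM in the double-mutant libraries, against 2.39, 26.8, 6.59, 25.99 and 14.3 CPM in the daf-2 libraries (-1.54 ± 0.78, adjusted p = 0.144). The second was at 4.3, 2.91, 0.558, 0.436 and 2.36 CPM in the double-mutant libraries, against 1.71, 9.42, 4.21, 7.26 and 4.84 CPM in the daf-2 libraries (-1.35 ± 0.58, adjusted p = 0.0863). In both, daf-2 replicates 2 and 4 were highest, daf-2 replicate 1 was lowest of its genotype and double-mutant replicate 4 was lowest of all.

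The dauer cuticle genes col-40 and cut-1 varied across libraries alongside these 3 grl genes. The collagen gene col-40 was at 20.6, 22.6, 10.3, 3.49 and 16.5 CPM in the double-mutant libraries, against 8.71, 118, 19.96, 77.3 and 39.5 CPM in the daf-2 libraries. The cuticlin gene cut-1 was at 4.3, 4.91, 1.21, 0.327 and 5.17 CPM in the double-mutant libraries, against 1.79, 23.5, 6.13, 26.5 and 15.1 CPM in the daf-2 libraries. Both were high in daf-2 replicates 2 and 4 and lowest in double-mutant replicate 4. In the list of 10 dauer markers to which they belong, 2 genes (cut-6 and ets-10) rose and 1, cut-1, fell. Other cuticle genes of that list did not follow them, since cut-5, cut-6 and col-183 were each lowest in a daf-2 library. The cuticlin gene cut-6 averaged 19.6 ± 3.51 CPM in the double mutant and 10.2 ± 1.27 CPM in daf-2 (adjusted p = 0.000735). The genes col-40 and cut-1 were singled out after their values were seen, and their part in the grl results was not tested.

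The remaining 7 grl genes tested did not pass either. The largest fitted changes among these were in grl-19, at 5.62, 4.18, 0.836, 0.9804 and 4.58 CPM in the double-mutant libraries, against 0.256, 0.884, 1.74, 0.968 and 1.702 CPM in the daf-2 libraries, and in grl-3, at 5.704, 10.6, 3.62, 2.51 and 6.22 CPM in the double-mutant libraries, against 2.05, 4.12, 3.94, 1.94 and 1.96 CPM in the daf-2 libraries. In grl-19 the double-mutant replicates 1, 2 and 5 were above all daf-2 libraries while replicates 3 and 4, a close pair, were not (1.59 ± 0.59, adjusted p = 0.0527). In grl-3 the libraries overlapped through replicates 3 and 4 as well (1.04 ± 0.39, adjusted p = 0.0534). The abundant grl-23 was at 51.2, 44.4, 34.5, 42.05 and 98.99 CPM in the double-mutant libraries, against 29.96, 107, 41.4, 88.2 and 54.98 CPM in the daf-2 libraries, with a wide spread in both genotypes (-0.24 ± 0.37, adjusted p = 0.634). The last 4 (grl-8, grl-10, grl-12 and grl-14) had log2 fold changes between 0.08 and 0.61.

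**Figure D4:**
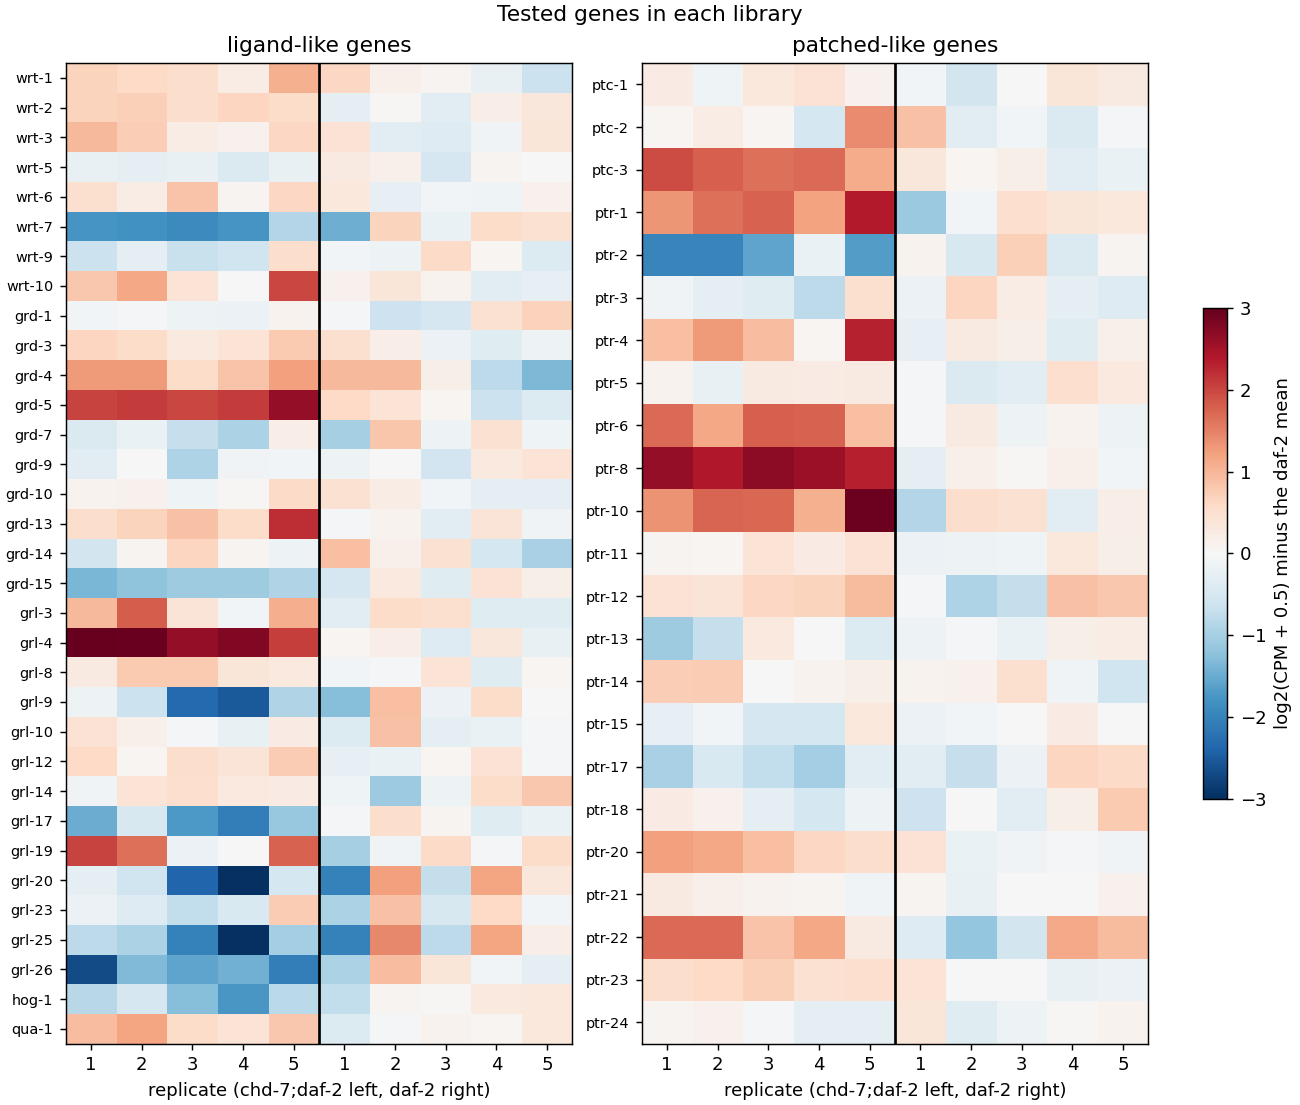
Log2 of CPM with a pseudocount of 0.5, relative to the mean of the daf-2 libraries, for each tested gene (rows, by family) in each library (columns, chd-7;daf-2 left of the line and daf-2 right). Uniform red rows are ptr-8, ptc-3, grd-5 and grl-4, and grl-9, grl-20 and grl-25 change colour between libraries of the same genotype.

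Of 8 tested wrt genes, 2 rose and 1 fell, all at low levels. The gene wrt-7 (WBGene00006953, chrV:15334754-15337505, minus strand) was at 0.878, 0.818, 0.743, 0.871 and 2.03 CPM in double-mutant replicates 1 to 5, against 1.19, 6.87, 3.57, 6.29 and 5.89 CPM in daf-2 replicates 1 to 5. The daf-2 replicate 1 lay with the double-mutant libraries, and the other 4 daf-2 libraries lay above all of them (-2.10 ± 0.46, adjusted p = 0.00494). With close pairs summed wrt-7 did not pass (adjusted p = 0.0542). The gene wrt-10 was at 7.02, 9.18, 5.204, 3.81 and 16.8 CPM in the double-mutant libraries, against 4.18, 5.01, 4.12, 2.903 and 3.14 CPM in the daf-2 libraries. Libraries overlapped through double-mutant replicate 4, and replicate 5 was highest (1.13 ± 0.36, adjusted p = 0.0301). That call did not survive leaving out any 1 of double-mutant replicates 2 and 5 or daf-2 replicates 3, 4 and 5 (highest adjusted p 0.0677). Its neighbour wrt-1 lies on the other strand, with 15 bases between the facing ends of the genes, and had a fitted change that did not pass (0.96 ± 0.41, adjusted p = 0.0873). The gene wrt-2 was at 2.11, 2.18, 1.86, 2.07 and 1.899 CPM in the double-mutant libraries, against 0.853, 1.18, 0.824, 1.38 and 1.57 CPM in the daf-2 libraries. Its genotypes were just apart (0.80 ± 0.24, adjusted p = 0.0207), and the call was lost without daf-2 replicate 3 (adjusted p = 0.0518) and with close pairs summed (adjusted p = 0.0799).

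The most abundant warthog gene was wrt-5, whose product is known to be needed in hypodermal development. It was at 22.7, 21.99, 22.5, 19.6 and 22.5 CPM in the double-mutant libraries, against 32.3, 29.3, 18.5, 27.9 and 26.6 CPM in the daf-2 libraries. Its libraries overlapped through daf-2 replicate 3, and it did not pass (-0.30 ± 0.14, adjusted p = 0.107). Of the other tested wrt genes, wrt-3, wrt-6 and wrt-9 had log2 fold changes of 0.58, 0.71 and -0.36, none past the threshold. The exons of wrt-3 share 1002 bases with a pseudogene on the same strand.

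The single genes of the quahog and hog groups moved in opposite directions. QUA-1 is a Hog-domain protein needed for moulting. Its gene was read at 13.3, 16.2, 10.2, 9.26 and 12.2 CPM in double-mutant replicates 1 to 5, against 4.95, 6.48, 7.32, 7.12 and 8.64 CPM in daf-2 replicates 1 to 5. All double-mutant libraries were higher, although replicate 4 was close to daf-2 replicate 5 (0.83 ± 0.19, adjusted p = 0.00653). The hog-1 gene encodes a protein with a Hog domain. It was at 3.07, 3.999, 2.14, 1.42 and 3.14 CPM in double-mutant replicates 1 to 5, against 3.33, 6.28, 6.04, 7.33 and 7.46 CPM in daf-2 replicates 1 to 5. The daf-2 replicate 1 lay inside the double-mutant range, and the other daf-2 libraries were above it (-1.13 ± 0.29, adjusted p = 0.0119). The hog-1 call was lost without the 3 libraries that each stood apart in germline or yolk RNA (adjusted p = 0.05997) and with close pairs summed (adjusted p = 0.0623).

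In sum over all members of a class, patched-like reads came to 2486, 2385, 2628, 2511 and 2151 CPM in the double-mutant libraries, against 1740.5, 1429, 1576, 2046 and 1987 CPM in the daf-2 libraries. These sums did not overlap. Ligand-like reads came to 1324, 1301, 1056, 1119 and 1614 CPM in the double mutant, against 1127, 1239, 822, 896 and 847 CPM in daf-2, with overlap. By family, the ptr sum was 1814 ± 123 CPM in the double mutant and 1375 ± 213 CPM in daf-2 (SD, n = 5 each). The ptc sum was 619 ± 76.9 CPM in the double mutant and 380.8 ± 57.0 CPM in daf-2. Neither sum overlapped between genotypes, but the ptr gap was narrow, from 1643 CPM in double-mutant replicate 5 to 1612 CPM in daf-2 replicate 4. The grd sum was 1097 ± 169 CPM in the double mutant and 724 ± 177 CPM in daf-2, of which grd-3 made up 65.96%, and daf-2 replicate 1 lay above double-mutant replicate 3. The grl sum was 126 ± 42.0 CPM in the double mutant and 204 ± 105 CPM in daf-2, and the wrt sum 44.8 ± 8.54 CPM in the double mutant and 45.2 ± 5.798 CPM in daf-2 (SD, n = 5 each), each overlapping between genotypes.

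Over single genes, libraries of the genotypes did not overlap for 12 members that were higher and 3 that were lower in the double mutant, of 56 tested. Among all tested genes the shares were 12.7% and 10.0%. Ligand-like genes made up 5 of the higher and 3 of the lower, and patched-like genes 7 and 0. At a called change of at least 2-fold, 10 of the 56 tested members were higher and 7 lower. Over all tested genes the shares were 7.74% and 6.96%. By class, 4 of 33 ligand-like genes were higher and 6 lower, and 6 of 23 patched-like genes were higher and 1 lower. The split by class was not tested. Without double-mutant replicate 5, grd-13, ptr-4 and wrt-10 among the 10 members higher by at least 2-fold were under 2-fold (log2 fold changes of 0.64, 0.91 and 0.69).

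The 29 members that did not pass the filter on low counts were 18 grl, 6 grd, 3 ptr and 2 wrt genes. Together they had 327 reads in the double mutant and 326 in daf-2. Of these, grl-24 and grl-30 had no read in any library, which allows a level of up to 0.196 to 0.393 CPM by library. The neuronal marker gene unc-17 also had no read, and whether such zeros come from the counting was not tested. The other members below the filter had between 1 and 68 reads over 10 libraries. They were, by reads, grl-22 (68), grd-12 and grl-15 (64 each), grl-16 (59), grl-18 (55), ptr-16 (40), grl-1 (38), grl-28 (27), grd-6 (26), grl-2, grl-21 and wrt-8 (20 each) and ptr-19 (19). Fewer were found for grd-8, grl-5 and grl-11 (17 each), grd-16 and grl-7 (16 each), wrt-4 (10), grl-13 and ptr-9 (8 each), grd-2 and grl-6 (7 each), grd-11 (5), grl-27 and grl-31 (2 each) and grl-29 (1). No direction is given for these genes.

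By position, 84 members were matched to the Ensembl annotation of WBcel235. Ligand-like genes were most frequent on chromosome V (28 of 59), whereas patched-like genes were most frequent on chromosomes II (8 of 25) and I (7 of 25). Median exonic lengths were 1031 bases for ligand-like and 2988 bases for patched-like genes. Within 10000 bases of each other lay 9 neighbouring pairs of members, all of them ligand-like. In 1 of these pairs, grd-13 and grd-3, both genes were called, and both rose. Pairs with an untested gene could not meet this (grl-28 and grl-29, grl-29 and grl-30, grl-30 and grl-31, wrt-7 and wrt-8).

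Beyond these families, a list of 12 genes with counterparts in hedgehog signalling, lipid modification or sterol-sensing proteins was examined. By the same edgeR test, 2 of 10 tested rose and none fell. At an unadjusted p under 0.05 there were 4 higher and 0 lower, and with DESeq2 3 higher, che-14 among them (adjusted p = 0.0389), and 0 lower. The megalin-like receptor gene lrp-1, which acts in moulting and sterol uptake, was at 1552, 1426, 1112, 1142 and 1059 CPM in the double-mutant libraries, against 629.8, 591, 695, 802 and 642 CPM in the daf-2 libraries. Its genotypes did not overlap (0.90 ± 0.14, adjusted p = 0.000592). The acyltransferase-like gene hhat-2 was at 7.46, 8.09, 10.04, 8.17 and 8.51 CPM in the double-mutant libraries, against 3.76, 4.32, 3.66, 3.32 and 4.58 CPM in the daf-2 libraries. It too was apart (1.11 ± 0.16, adjusted p = 0.000372), and its exons share 50 bases with rps-18 on the other strand. The GLI counterpart tra-1, a sex determination factor, was not called (0.10 ± 0.17, adjusted p = 0.676). Nor were the dispatched-like genes che-14 (0.78 ± 0.30, adjusted p = 0.061) and ptd-2 (-0.12 ± 0.43, adjusted p = 0.846), the patched-related glial gene daf-6 (-0.37 ± 0.26, adjusted p = 0.278), the NPC1 homologues ncr-1 and ncr-2 (-0.27 and -0.37), scp-1 (0.15) and the glypican gene lon-2 (0.43). The genes gpn-1 and hhat-1 had 36 and 0 reads and were not tested.

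Markers of tissues known to express these families moved only in part. Of 12 tested epidermal and seam markers, 4 rose, and their summed level was 855 to 1148 CPM in the double mutant and 689 to 918 CPM in daf-2. The seam gene ceh-16 had no read. Of 4 tested glial and socket markers 2 rose, with sums of 104 to 197 CPM in the double mutant and 93.9 to 201 CPM in daf-2. Of 7 excretory markers 4 rose and 1 fell, with sums of 330 to 388 CPM in the double mutant and 274 to 325 CPM in daf-2. The gene lin-48, which rose, was in both the glial and the excretory list. All 7 body wall muscle markers rose, with sums of 4587 to 6633 CPM in the double mutant and 1209 to 2537 CPM in daf-2. Of 6 intestinal markers 2 rose and 3 fell (185 to 204 CPM in the double mutant and 268 to 319.8 CPM in daf-2), and of 7 neuronal markers 1 rose (1669 to 2138 CPM in the double mutant and 1583 to 2271 CPM in daf-2). The neuronal gene unc-17 had no read. Yolk genes were the only adult markers tested, and both of them (vit-6 and vit-2) fell, with sums over the list of 1.755 to 17.3 CPM in the double mutant and 3.53 to 107 CPM in daf-2. Only daf-2 replicates 2 and 3 were high (107 and 82.4 CPM). The other daf-2 libraries, at 3.53 to 6.23 CPM, lay below double-mutant replicate 4. The part of these tissues in the results above was not tested.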

How the data were processed

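RNA was sequenced from dauers of both genotypes, 5 libraries each. The authors deposited 1 table of whole-number read counts per gene for each library, not normalized. The submitters' processing notes name DESeq2 1.20.0, HTSeq 0.9.1, STAR 2.5.4a and FastQC 0.11.5. No build, annotation or strand setting is given in the sources used here. Reads with several alignments (5.53% to 11.2% of assigned reads and tallies together), reads outside genes (2.94% to 5.696%) and ambiguous reads (2.07% to 2.302%) belong to no gene and were kept out of the library totals.

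The analysis used edgeR 4.0.16 in R 4.3.3. The filter filterByExpr (minimum count 10, minimum total 15) kept 12499 of 20222 genes. After TMM scaling, genotypes were compared by the robust quasi-likelihood F test with no covariate, Benjamini-Hochberg adjustment over all tested genes and a threshold of 0.05. Every adjusted p is from this fit unless another is named. A log2 fold change is chd-7;daf-2 over daf-2, and its SE is the absolute value over the root of F. TPM used exonic lengths of Ensembl 115 (WBcel235), matched by name for 91.6% of genes and 84 of 85 members. The authors may have counted with another annotation. The limit of 3 counts covers counting error only, whereas each SD and SE reflects the spread between libraries.

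The members, lists and tests were chosen with earlier results of these data known. Values in every library are given for called members with a change of at least 2-fold, the called member with the lowest p in each family and direction, the ptc genes, hog-1, qua-1 and the 3 members of each class with the highest daf-2 TPM. Other members shown this way were chosen after their values were seen. No sequences were used, so a planned description of promoter motifs was not run. The test was also run on simulated counts with known changes. Alternatives were limma 3.58.1 (voomWithQualityWeights), DESeq2 1.42.0, other scalings and filters, glmTreat at a fold of 1.5, a replicate block, close library pairs summed, and libraries left out.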

Additional observations from a re-analysis of the deposited data

Results flagged for a closer look

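In a group of 5 libraries, a value was singled out where its gap to the nearest other library exceeded 0.71 of the group's range. Of 64 groups examined 8 met this, and chance flags about 5% of groups. In 5 of the 8 the high library was chd-7;daf-2 replicate 5. It had 58.6 CPM of grd-13, against 17.7 to 22.9 CPM in the other chd-7;daf-2 libraries. It had 206 CPM of grd-5, against 134 to 143 CPM. It had 4.78 CPM of ptc-2, against 0.871 to 1.82 CPM, and 8.97 CPM of ptr-10, against 2.07 to 3.64 CPM. It also had 2.03 CPM of wrt-7, against 0.743 to 0.878 CPM. Without that library grd-13, grd-5, ptr-10 and wrt-7 still passed the threshold, but grd-13 had a log2 fold change of 0.64 in place of 1.15, which is under 2-fold. In chd-7;daf-2 replicate 4, ptr-2 was at 16.99 CPM, against 4.54 to 6.13 CPM in the others. In daf-2 replicate 1, ptc-2 was at 3.16 CPM, against 0.968 to 1.44 CPM. The summed wrt level was 35.2 CPM in daf-2 replicate 3, against 46.1 to 49.3 CPM in the other daf-2 libraries.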

How the results depend on the processing

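Over 20 alternatives no member changed sign while called. Of 23 called members, 18 passed without each library in turn, and 14 passed under every alternative that gave them a value, the fold threshold aside. Leaving out 1 library, the ligand-like genes called numbered 5 to 9 higher and 5 to 7 lower, the patched-like 8 higher throughout and 1 to 2 lower. The share called over all tested genes ranged from 26.7% to 36.6% in the same fits. The other pathway genes called numbered 2 to 3 higher and 0 to 1 lower (edgeR, where ncr-1 was called lower without daf-2 replicate 2). The second lower patched-like gene was ptr-17 in these fits. With total-count scaling, with no filter and with the replicate block, 1 patched-like gene was called lower. The stricter filter (at least 5 CPM in 5 libraries) tested fewer genes (13 ligand-like and 17 patched-like). With it, ligand-like genes were 5 higher and 2 lower, and patched-like genes were 5 higher and 1 lower. Against a fold threshold of 1.5 (glmTreat), 2 ligand-like and 5 patched-like genes were higher, and 4 ligand-like and 0 patched-like were lower. At an unadjusted p under 0.05 in that test, 1 patched-like gene was lower. With close pairs summed, which leaves fewer units, 4 ligand-like genes were higher and 3 lower, and 7 patched-like genes were higher and 1 lower. That fit held 15 of the 23 called members. The fold threshold took the calls in the whole table to 1214 genes (761 higher and 453 lower) of 12499. Summed pairs took them to 2631, against 4523 in the main fit. Deviations of same-numbered libraries correlated at 0.24 to 0.33 for replicates 1, 2 and 5 and at -0.19 and -0.18 for replicates 3 and 4, with 2 of 5 highest at their own number. Since not every pair correlated positively, the numbers were not taken as pairs. The block gave 4764 calls over all genes and held 21 of the 23 called members, without ptr-17 and grl-25 and with grl-3 and wrt-3 in addition. Genes of under about 1 CPM rest on few reads.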
